A study of Mus musculus with 14 samples.

Results

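The genes described here are 47 mouse genes of the extracellular part of Wnt signaling, chosen by name, and all 47 were found among the 35275 genes of the deposited expression table. They comprise 17 Wnt ligands, 2 factors for ligand lipidation and secretion, 10 Frizzled receptors, 2 Lrp co-receptors, 3 alternative receptors, 9 secreted inhibitors and 4 R-spondins. Their mRNA was measured in 14 libraries of 5 murine ovarian tumor lines, all grown as tumorspheres, that is, without attachment, for 5 days in serum-free medium. KMF cells are tumor cells obtained by passage of ID8 ovarian epithelial cells through mice, and they carry gains of Myc and the FAK gene Ptk2. FAK KO cells are 1 clone of KMF cells, KT13, in which exon 4 of Ptk2 was targeted by CRISPR. The other lines all derive from this clone and therefore all carry the knockout: FAK-WT cells re-express GFP-tagged FAK from a lentiviral vector, FAK-R454 cells express a kinase-inactive GFP-FAK in the same way, and β-catenin ΔGSK cells express from a retroviral vector an activated β-catenin without its GSK3β phosphorylation sites. The study describes these 3 lines as also selected with puromycin or hygromycin and enriched by flow cytometry. No sample of the clone with an empty vector was among those analysed. In their comparisons with FAK KO cells, the introduced protein and this handling therefore cannot be told apart. There were 3 samples of each line except FAK-R454, with 2, and since each engineered line is a single derivation from 1 clone, the samples of a line measure the spread of that line and not that of independent lines.

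Wnt ligands are secreted glycoproteins that need the acyltransferase Porcn for their lipid and the carrier Wls for their release. On the receiving cell they bind a Frizzled receptor together with the co-receptor Lrp5 or Lrp6, which stops the phosphorylation of β-catenin by GSK3β and so its destruction, and stable β-catenin then activates TCF and LEF target genes. Other ligands signal through Ror1, Ror2 or Ryk without β-catenin. Dkk1 and Dkk2 block the Lrp co-receptors, Sfrp proteins, Frzb and Wif1 bind the ligands, and R-spondins keep Frizzled receptors at the cell surface. In the ovary, Wnt4 is known for its part in the development of the female gonad.

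Each library held between 25390558 and 35289859 fragments on genes, and libraries of the same line correlated with each other with a mean r between 0.989 and 0.996, lowest for FAK-WT sample 3. Ptk2 mRNA, the targeted gene, was 19.0 ± 1.45 FPKM in FAK KO cells (SD, n = 3), 24.3 ± 0.421 in KMF, 43.4 ± 1.76 in FAK-WT, 62.4 ± 4.42 in FAK-R454 (n = 2) and 15.5 ± 0.401 in β-catenin ΔGSK cells. It counts the whole gene, edited alleles and re-expressed GFP-FAK alike, so it does not check a knockout made by small edits. The β-catenin gene Ctnnb1 had 145 ± 4.63 FPKM in FAK KO cells and, in those with β-catenin ΔGSK, 214 ± 8.24 FPKM (SD, n = 3), which on the log2 scale is 0.57 higher (adjusted p = 6.84e-05, limma). The latter value may include mRNA of the introduced β-catenin, which was not tested. Of 10 epithelial or mesothelial markers, Krt8, Krt18, Krt19, Wt1, Msln and Upk3b were above 1 FPKM, and Krt7, Epcam, Cdh1 and Muc16 were below 1 FPKM in each library. Their sum ranged from 1069 to 1250.5 FPKM in FAK KO, 1569.7 to 1809 in FAK-WT, 1257 to 1294 in FAK-R454, 1218 to 1399.6 in β-catenin ΔGSK and 1175 to 1204 in KMF cells, so that the FAK-WT samples lay above all others. Among single markers of this list, Upk3b was higher in FAK-R454 than in FAK KO cells by 2.96 and Wt1 higher in β-catenin ΔGSK than in FAK KO cells by 1.21 on the log2 scale (adjusted p = 4.30e-05 and 8.86e-07, limma). In β-catenin ΔGSK cells Upk3b (mean 8.74 against 4.03 FPKM) and Krt19 (0.55 on the log2 scale) were also higher, and Krt8 (-0.81) and Msln (-0.55) were lower (adjusted p up to 0.00216, limma). Markers of leukocytes and blood other than Cd68 and Cd14 were low, with Cd3e and Hba-a2 at 0 in each library and Ptprc at 1 fragment in all. The summed fibroblast markers, carried by Dcn, Pdgfra and Col1a1, ranged from 90.0 to 126.6 FPKM in FAK KO, 123.1 to 145.3 in FAK-WT, 121.7 to 131.7 in FAK-R454, 30.8 to 45.1 in β-catenin ΔGSK and 41.8 to 49.8 in KMF cells, while Lum, Col1a2 and Thy1 were near 0. In KMF over FAK KO cells the 3 genes did not move together, with Dcn lower (-1.57) and Pdgfra (1.55) and Col1a1 (0.87) higher (adjusted p up to 0.00481, limma). In FAK-WT and FAK-R454 over FAK KO cells, Col1a1 (2.70 and 2.86) and Pdgfra (1.72 and 1.53) were higher (adjusted p up to 1.42e-04, limma). Dcn did not pass there (0.20 and 0.14). With β-catenin ΔGSK all 3 were lower, Col1a1 at -2.28, Pdgfra at -1.77 and Dcn at -1.36 (adjusted p up to 2.03e-04, limma). The leukocyte sum, of which Cd68 and Cd14 made nearly all, ranged from 6.85 to 6.96 FPKM in FAK KO, 11.5 to 16.6 in FAK-WT, 8.76 to 9.10 in FAK-R454, 3.98 to 5.21 in β-catenin ΔGSK and 7.47 to 8.14 in KMF cells. Over FAK KO, Cd68 was higher in FAK-WT (1.44) and FAK-R454 (0.51) and lower in β-catenin ΔGSK cells (-1.16) (adjusted p up to 0.0127, limma). It did not pass in KMF cells (0.03). The changes of Cd14 over FAK KO lay between -0.30 and 0.34. The endothelial sum was low, from 0.396 to 0.689 FPKM in β-catenin ΔGSK and from 0.892 to 1.37 in FAK KO cells, with Pecam1 lower in the former (-1.58, adjusted p = 0.00185, limma). The part of these differences in the results was not tested, and in these bulk samples fewer cells of a kind and less mRNA per cell cannot be told apart.

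Of the 47 genes, 27 (57.4%) had a mean above 1 FPKM in at least 1 line, compared with 34.7% of all genes. These were 11 of 17 ligands, both secretion factors, 7 of 10 Frizzled receptors, both Lrp co-receptors, 2 of 3 alternative receptors, 3 of 9 inhibitors and none of the 4 R-spondins. Wnt9b and Fzd10 had no fragment in any library, which allows no more than 0.0112 and 0.0155 FPKM in the line with the fewest fragments (3 fragments over its libraries). Including these 2, 16 genes stayed below 0.2 FPKM in each library, the others being Wnt3, Wnt3a, Wnt7a, Wnt16, Fzd3, Ror2, Dkk3, Sfrp1, Sfrp2, Sfrp5, Frzb, Wif1, Rspo2 and Rspo4. The canonical ligands Wnt3 and Wnt3a thus had 2 and 1 fragments in all 14 libraries, and the inhibitors Sfrp1 and Frzb had 2 each. Between these groups lay Wnt2b, Fzd8, Rspo1 and Rspo3. Fzd8 was 0.699, 0.696 and 0.686 FPKM in KMF and at most 0.0993 FPKM in any library of the other lines, and Rspo1, which amplifies the Wnt signal, was lowest in FAK KO (0.199, 0.105 and 0.292 FPKM) and highest in β-catenin ΔGSK cells (0.730, 1.05 and 1.13 FPKM). Rspo3 was 0.647 and 0.396 FPKM in FAK-R454 and had no fragment in the 3 β-catenin ΔGSK libraries, which allows up to 0.0151 FPKM.

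Positions are those of the whole gene in mm10. Among the ligands, beginning with those of the largest share in FAK KO cells, Wnt6 (chr1:74771892-74785322) was 67.3, 70.7 and 44.2 FPKM in KMF, 45.1, 54.3 and 51.3 in FAK KO, 46.4, 47.5 and 37.0 in FAK-WT, 50.6 and 49.1 in FAK-R454, and 83.6, 83.3 and 102 in β-catenin ΔGSK. The β-catenin ΔGSK samples all lay above the others, of which those of FAK-WT were below those of FAK-R454, and both overlapped with KMF and FAK KO. Wnt2 (chr6:17988940-18030585), a ligand of the β-catenin pathway, was 22.3, 23.4 and 24.2 FPKM in KMF, 21.8, 22.7 and 22.8 in FAK KO, 21.0, 22.0 and 15.04 in FAK-WT, 16.2 and 15.3 in FAK-R454, and 13.7, 15.4 and 16.3 in β-catenin ΔGSK. The FAK-R454 and β-catenin ΔGSK samples lay below all FAK KO samples, and FAK-WT sample 3 stood apart from the 2 others of its line. For Wnt10a (chr1:74791516-74804179), a ligand known from hair and teeth, the values were 13.2, 12.9 and 9.94 FPKM in KMF, 13.0, 17.1 and 14.7 in FAK KO, 26.8, 29.0 and 26.5 in FAK-WT, 26.8 and 26.3 in FAK-R454, and 30.8, 29.7 and 33.4 in β-catenin ΔGSK. The samples of all 3 lines made from the knockout clone were above those of KMF and FAK KO cells, which overlapped.

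Wnt4 (chr4:137277489-137299726) was at 20.4, 20.8 and 20.8 FPKM in KMF, 13.0, 14.2 and 14.2 in FAK KO, 20.5, 21.3 and 21.9 in FAK-WT, 7.34 and 7.44 in FAK-R454, and 241, 239 and 256 in β-catenin ΔGSK. The FAK-R454 samples were the lowest, the FAK KO samples came next, the KMF and FAK-WT samples overlapped above them, and the β-catenin ΔGSK samples stood far above the rest. Wnt11 (chr7:98835112-98855195), which acts in cell movement during gastrulation and kidney growth, was 13.2, 13.8 and 11.2 FPKM in KMF, 6.03, 7.57 and 6.74 in FAK KO, 10.7, 12.2 and 14.6 in FAK-WT, 8.73 and 8.34 in FAK-R454, and 48.3, 47.3 and 45.4 in β-catenin ΔGSK. Here too the β-catenin ΔGSK samples stood far above the rest, the FAK KO samples were the lowest, and the KMF and FAK-WT samples overlapped. Wnt5a (chr14:28504750-28527447), the best known ligand of the pathways without β-catenin, was 1.85, 1.75 and 2.08 FPKM in KMF, 7.27, 7.66 and 7.40 in FAK KO, 13.3, 13.5 and 15.97 in FAK-WT, 13.9 and 14.6 in FAK-R454, and 20.3, 19.6 and 18.3 in β-catenin ΔGSK, so that the KMF samples were far below FAK KO and the other derived lines were above it. Its paralog Wnt5b (chr6:119432531-119544347) was 2.13, 2.05 and 1.61 FPKM in KMF, 6.67, 8.04 and 7.44 in FAK KO, 6.66, 6.57 and 4.75 in FAK-WT, 7.24 and 7.03 in FAK-R454, and 10.03, 10.4 and 12.0 in β-catenin ΔGSK, again with the KMF samples below all others and those of β-catenin ΔGSK above all others.

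Wnt7b (chr15:85535439-85581821), a ligand of lung and vascular development, was 5.32, 4.78 and 5.30 FPKM in KMF, 3.85, 4.20 and 2.96 in FAK KO, 11.4, 13.0 and 22.4 in FAK-WT, 8.67 and 10.4 in FAK-R454, and 1.11, 1.27 and 0.730 in β-catenin ΔGSK. No line overlapped with another, in the order FAK-WT, FAK-R454, KMF, FAK KO and β-catenin ΔGSK from high to low, and FAK-WT sample 3 was well above the 2 others of its line. Wnt10b (chr15:98771753-98778150), a ligand that acts on fat and mammary cells, was 3.25, 2.43 and 2.90 FPKM in KMF, 1.27, 1.17 and 1.38 in FAK KO, 1.17, 1.57 and 3.12 in FAK-WT, 1.49 and 1.84 in FAK-R454, and 0.459, 0.407 and 0.504 in β-catenin ΔGSK. The β-catenin ΔGSK samples were below and the KMF samples above the FAK KO samples, while FAK-WT ranged from the lowest FAK KO value to the level of KMF. Wnt1 (chr15:98789857-98793837), the founding member of the family, was 2.13, 1.61 and 1.42 FPKM in KMF, 0.391, 0.210 and 0.346 in FAK KO, 0.606, 0.533 and 1.16 in FAK-WT, 0.575 and 0.518 in FAK-R454, and 0.148, 0.348 and 0.2001 in β-catenin ΔGSK. Wnt9a (chr11:59306928-59333552), which acts in bone and joint formation, was 0.933, 1.21 and 1.17 FPKM in KMF, 0.560, 0.381 and 0.484 in FAK KO, 0.717, 0.673 and 1.15 in FAK-WT, 0.607 and 0.856 in FAK-R454, and 0.616, 0.534 and 0.481 in β-catenin ΔGSK. For both, the KMF samples lay above all FAK KO samples, at 107 to 147 fragments per KMF library for Wnt1 and 90 to 137 for Wnt9a.

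**Figure D1:**
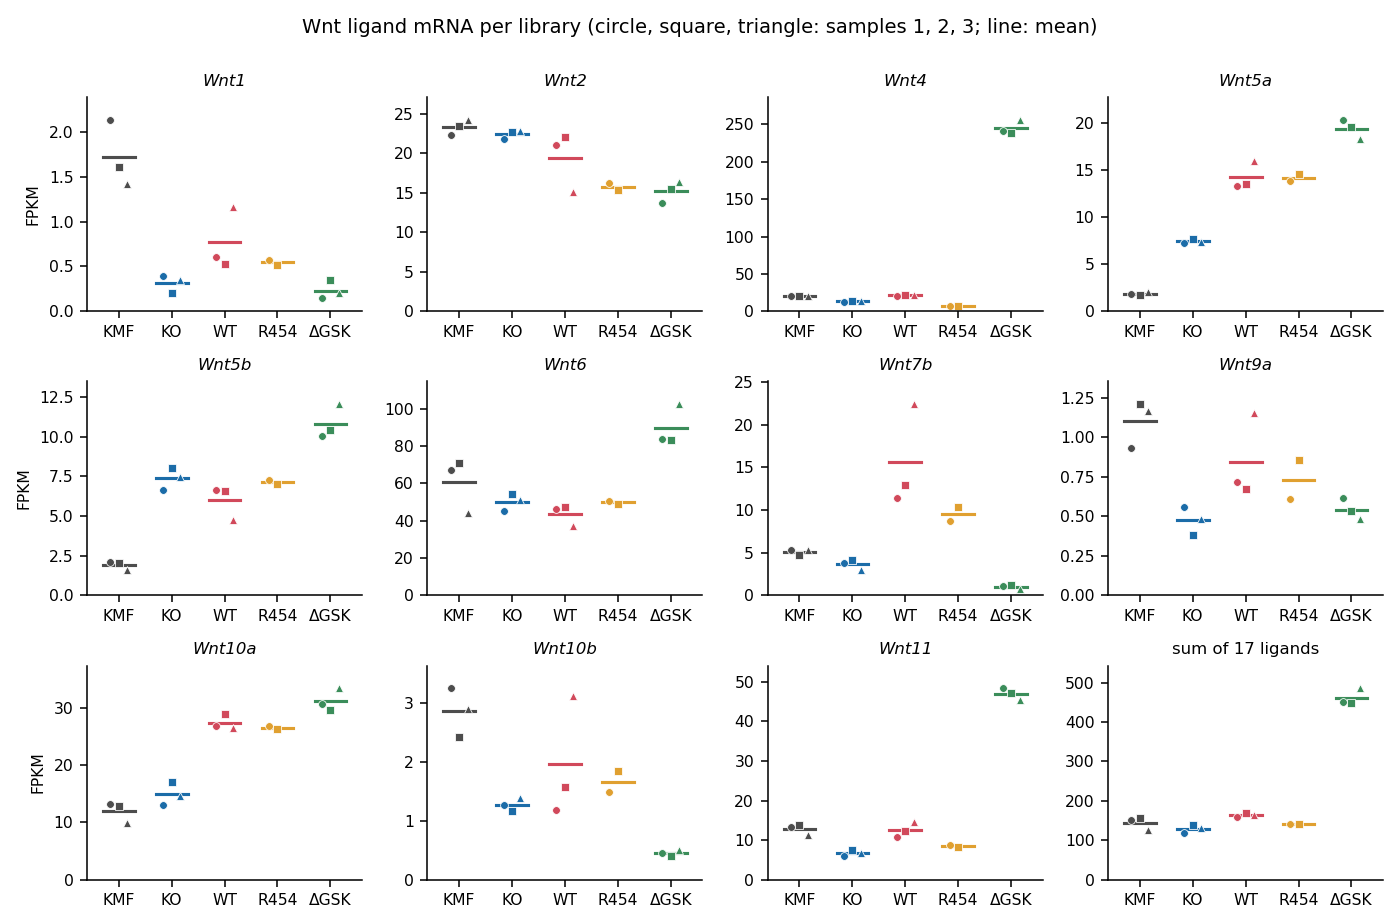
FPKM of the 11 ligands with a mean above 1 FPKM in at least 1 line, and the sum of all 17 ligands, in each library of KMF, FAK KO (KO), FAK-WT (WT), FAK-R454 (R454) and β-catenin ΔGSK (ΔGSK) cells, with 1 symbol per sample, a horizontal line at the mean and linear axes from 0. The ΔGSK samples stand above all others for Wnt4, Wnt11, Wnt6, Wnt5a, Wnt5b and Wnt10a and below all others for Wnt7b and Wnt10b.

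The summed FPKM of the 17 ligands was 128.9 ± 9.31 in FAK KO, 144.4 ± 16.8 in KMF, 163.7 ± 4.25 in FAK-WT, 142.1 ± 0.278 in FAK-R454 (n = 2) and 461.1 ± 21.1 in β-catenin ΔGSK cells (SD, n = 3 otherwise). Wnt6 made the largest part of this sum in 4 lines, with 38.9% ± 0.906 in FAK KO, 41.6% ± 5.48 in KMF, 26.7% ± 3.55 in FAK-WT and 35.1% ± 0.641 in FAK-R454 cells. In β-catenin ΔGSK cells Wnt4 made 53.2% ± 0.479, against 10.7% ± 0.350 in FAK KO cells, and Wnt6 made 19.4% ± 1.43. The share of Wnt10a was 11.5% ± 0.776 in FAK KO, 16.8% ± 0.550 in FAK-WT and 18.7% ± 0.220 in FAK-R454 cells. These sums and shares are descriptions and were not tested.

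**Figure D2:**
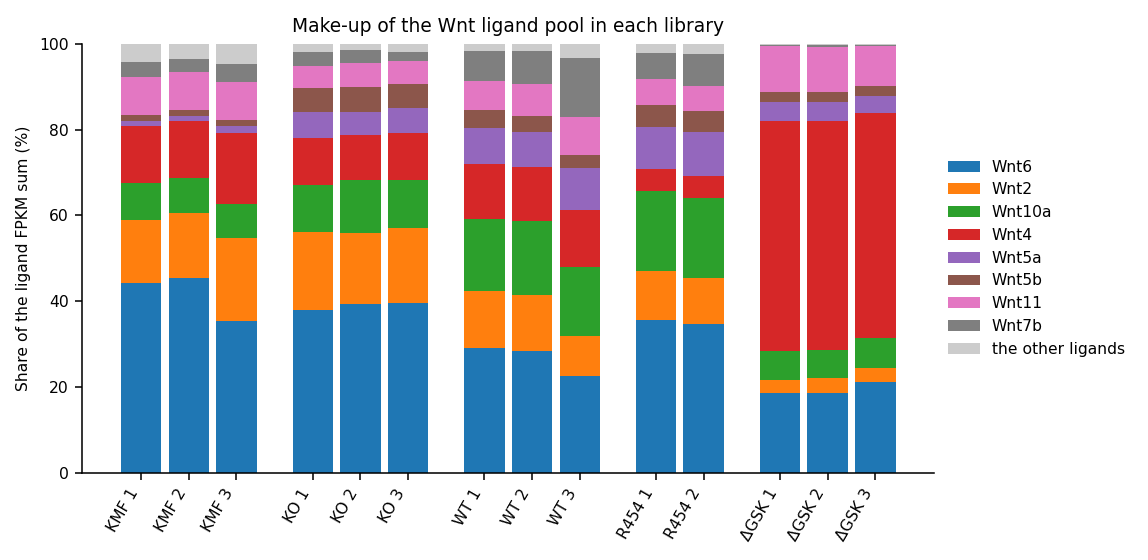
Share of each ligand in the summed FPKM of the 17 ligands, as stacked bars in percent from 0 to 100 for each of the 14 libraries, with the 8 ligands that reach a mean of 5 FPKM in a line in color and the others in gray. Wnt6 is the largest segment in the KMF, FAK KO (KO), FAK-WT (WT) and FAK-R454 (R454) libraries, and Wnt4 in the 3 β-catenin ΔGSK (ΔGSK) libraries.

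Of the secretion factors, Porcn (chrX:8193848-8206525) was 6.02, 4.89 and 5.83 FPKM in KMF, 4.35, 4.61 and 3.64 in FAK KO, 4.59, 5.43 and 8.28 in FAK-WT, 5.66 and 5.26 in FAK-R454, and 2.30, 2.78 and 2.00 in β-catenin ΔGSK. The other factor, Wls (chr3:159839737-159935833), was 165, 158 and 184 FPKM in KMF, 150.4, 119 and 127 in FAK KO, 131, 132 and 143 in FAK-WT, 139 and 142 in FAK-R454, and 88.9, 75.8 and 72.6 in β-catenin ΔGSK. The β-catenin ΔGSK samples were below all other samples for both genes, so the line with the largest ligand sum had the lowest level of both secretion factors. Among the receptors, Fzd1 (chr5:4753873-4758035) was 47.9, 46.9 and 37.6 FPKM in KMF, 22.2, 21.7 and 22.7 in FAK KO, 29.95, 30.9 and 41.0 in FAK-WT, 29.1 and 31.1 in FAK-R454, and 17.1, 16.5 and 15.3 in β-catenin ΔGSK. Its β-catenin ΔGSK samples were below and its KMF, FAK-WT and FAK-R454 samples above the FAK KO samples. Fzd1 made the largest part of the Frizzled sum in those lines and in FAK KO, from 37.7% in FAK KO to 46.4% in KMF cells, but 23.1% in β-catenin ΔGSK cells, where Fzd7 made 29.0%. For Fzd7 (chr1:59482424-59486955), a receptor of stem cells, the values were 16.96, 18.2 and 14.9 FPKM in KMF, 11.3, 13.3 and 12.4 in FAK KO, 13.2, 13.9 and 15.2 in FAK-WT, 13.4 and 13.4 in FAK-R454, and 21.9, 20.6 and 19.0 in β-catenin ΔGSK. The β-catenin ΔGSK samples were the highest and the FAK KO samples among the lowest. Fzd4 (chr7:89404366-89410110), the receptor of vascular development, was 2.53, 2.80 and 2.30 FPKM in KMF, 2.20, 1.68 and 2.36 in FAK KO, 1.73, 1.59 and 1.37 in FAK-WT, 2.07 and 2.48 in FAK-R454, and 10.4, 9.79 and 9.54 in β-catenin ΔGSK. The β-catenin ΔGSK samples stood far above all others, the FAK-WT samples were below those of FAK-R454 and KMF, and the FAK KO samples overlapped with all 3 of these lines. Fzd9 (chr5:135248938-135251230) was 4.43, 3.94 and 2.98 FPKM in KMF, 0.782, 1.14 and 0.763 in FAK KO, 1.92, 2.21 and 3.69 in FAK-WT, 2.56 and 2.66 in FAK-R454, and 0.154, 0.395 and 0.341 in β-catenin ΔGSK. Its FAK KO samples were below those of KMF, FAK-WT and FAK-R454 and above those of β-catenin ΔGSK cells.

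Fzd6 (chr15:39006280-39038186), a receptor of planar polarity, was 7.09, 7.97 and 7.28 FPKM in KMF, 3.91, 3.29 and 3.97 in FAK KO, 4.30, 3.91 and 3.82 in FAK-WT, 5.92 and 6.27 in FAK-R454, and 4.39, 4.26 and 3.85 in β-catenin ΔGSK, with the KMF and FAK-R454 samples above the other 3 lines, which overlapped. Fzd2 (chr11:102604396-102608058) was 12.4, 11.8 and 8.32 FPKM in KMF, 8.82, 10.9 and 11.3 in FAK KO, 10.2, 10.6 and 12.5 in FAK-WT, 13.2 and 14.9 in FAK-R454, and 12.8, 12.9 and 13.4 in β-catenin ΔGSK, with the FAK-R454 and β-catenin ΔGSK samples above all FAK KO samples. Fzd5 was between 6.08 and 9.84 FPKM in all libraries. The co-receptor Lrp5 (chr19:3584828-3686564) was 48.8, 50.5 and 42.1 FPKM in KMF, 28.7, 33.3 and 33.3 in FAK KO, 43.5, 47.2 and 59.0 in FAK-WT, 41.0 and 43.1 in FAK-R454, and 30.5, 32.5 and 30.9 in β-catenin ΔGSK. Its paralog Lrp6 (chr6:134446476-134566965) was 14.99, 15.8 and 16.2 FPKM in KMF, 21.7, 20.2 and 20.6 in FAK KO, 18.1, 17.7 and 16.999 in FAK-WT, 18.7 and 19.8 in FAK-R454, and 23.8, 22.3 and 22.9 in β-catenin ΔGSK. These paralogs did not go together: the FAK KO and β-catenin ΔGSK samples were the lowest for Lrp5 and the highest for Lrp6, and no line overlapped with another for Lrp6. Of the alternative receptors, Ror1 (chr4:100095791-100444765), which binds Wnt5a, was 2.42, 2.69 and 2.37 FPKM in KMF, 2.66, 2.47 and 2.73 in FAK KO, 1.77, 1.79 and 1.75 in FAK-WT, 2.56 and 2.82 in FAK-R454, and 4.92, 4.83 and 5.61 in β-catenin ΔGSK. Ryk (chr9:102834917-102908305) was 38.9, 36.9 and 37.8 FPKM in KMF, 35.8, 33.5 and 35.6 in FAK KO, 29.7, 30.5 and 30.5 in FAK-WT, 34.7 and 35.4 in FAK-R454, and 42.6, 38.5 and 41.0 in β-catenin ΔGSK. Both were lowest in FAK-WT, and the β-catenin ΔGSK samples of Ror1 were above all others.

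Only 3 secreted inhibitors were above 1 FPKM. Dkk1 (chr19:30545863-30549665) was 0 FPKM in all KMF and β-catenin ΔGSK libraries, which allows up to 0.0134 and 0.0149 FPKM, and 0.137, 0.0632 and 0.191 FPKM in FAK KO, 0.304, 0.338 and 0.262 in FAK-WT and 1.22 and 1.04 in FAK-R454 cells. The 3 lines with a value did not overlap, and their values rest on 4 to 13 fragments per library in FAK KO and 80 to 82 in FAK-R454. Dkk2 (chr3:132085292-132180293) was 5.39, 4.96 and 7.42 FPKM in KMF, 3.99, 2.83 and 2.58 in FAK KO, 4.63, 4.79 and 9.52 in FAK-WT, 6.55 and 6.69 in FAK-R454, and 6.02, 5.60 and 3.05 in β-catenin ΔGSK. Sfrp4 (chr13:19623175-19632821) was 2.78, 2.57 and 2.60 FPKM in KMF, 1.95, 1.14 and 1.53 in FAK KO, 2.41, 2.21 and 2.34 in FAK-WT, 2.99 and 3.15 in FAK-R454, and 2.43, 2.98 and 2.24 in β-catenin ΔGSK. The FAK KO samples were the lowest for both, with overlap only by a β-catenin ΔGSK sample for Dkk2.

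**Figure D3:**
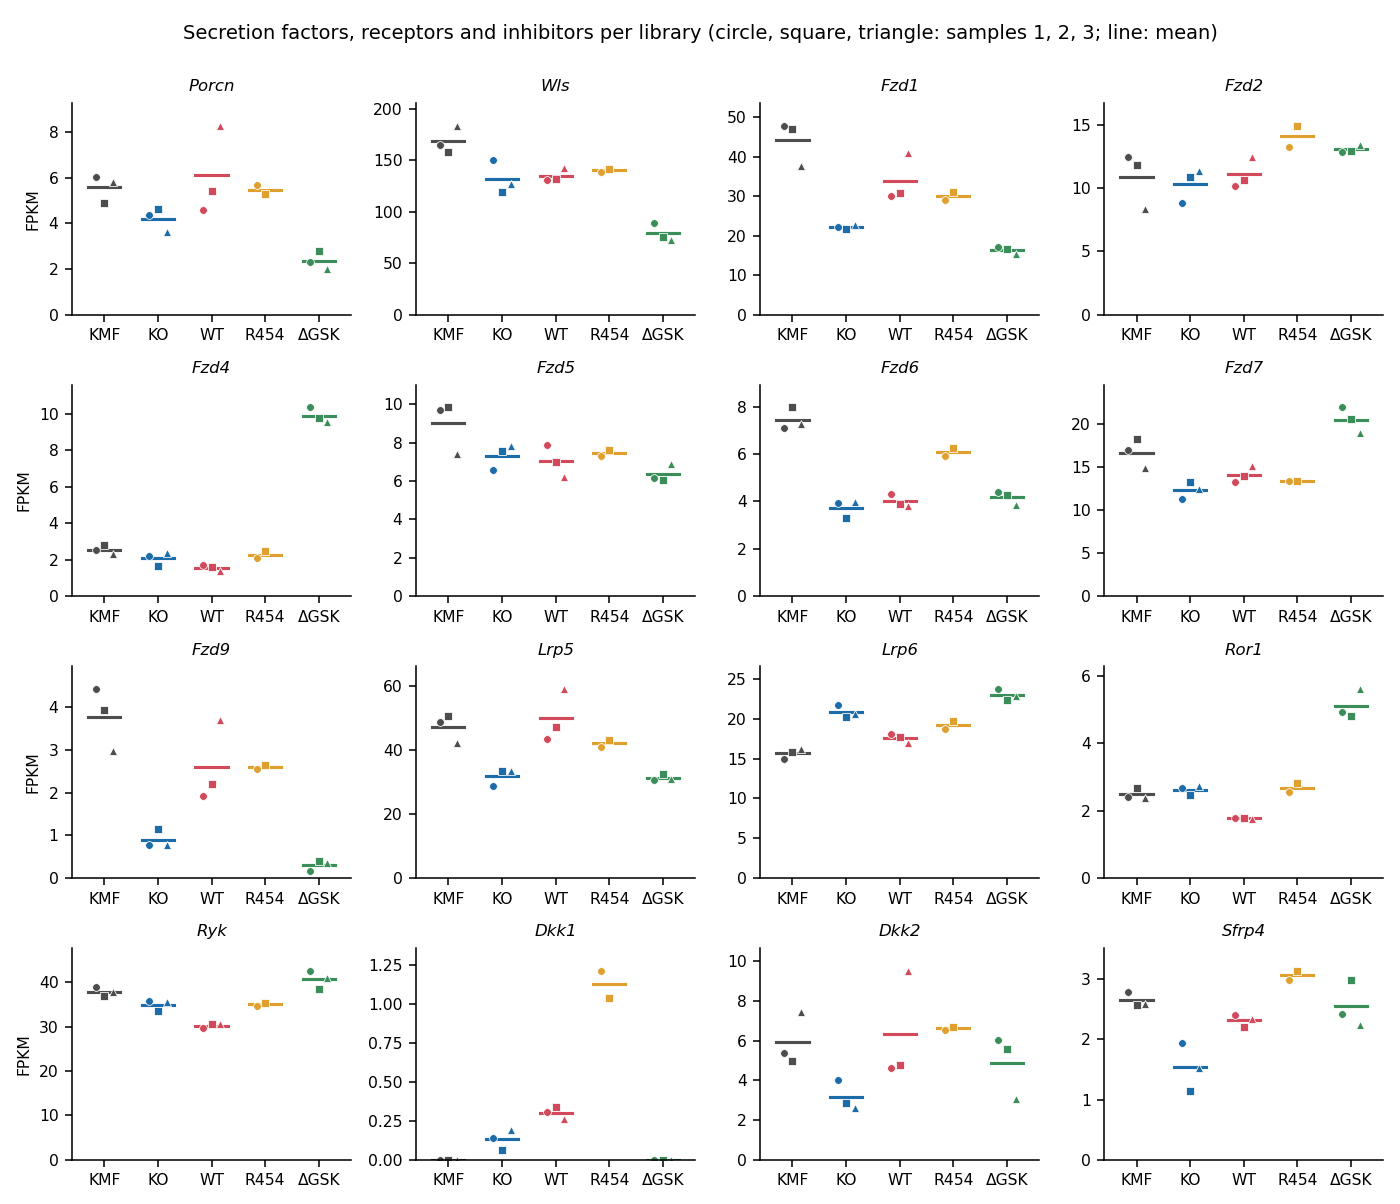
FPKM of the 2 secretion factors, 7 Frizzled receptors, 2 Lrp co-receptors, 2 alternative receptors and 3 secreted inhibitors with a mean above 1 FPKM in at least 1 line, in each library of the 5 lines, drawn as for the ligands. The ΔGSK samples stand above all others for Fzd4, Fzd7, Ror1 and Lrp6 and below all others for Porcn, Wls, Fzd1 and Fzd9, and Dkk1 is at 0 in KMF and ΔGSK cells.

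Lines were compared with limma on the log2(FPKM + 0.1) scale, on which all fold changes below are given and which understates the changes of low genes, over all genes with a mean above 1 FPKM in at least 1 of the 2 lines. Calls required 3 things: a p under 0.05 after Benjamini-Hochberg adjustment over all these genes, a change of at least 1 up or down on that scale, and a mean above 1 FPKM in the higher line. A gene that passed at any fold had an adjusted p under 0.05 only. The 4 comparisons with FAK KO share its 3 samples, so they are not independent of each other. An exact 2-sided permutation test of 1 gene could not go below p = 0.1 with 3 against 3 samples or with 2 against 3.

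The comparison of β-catenin ΔGSK with FAK KO cells sets the clone with an activated β-catenin, transduced and selected, against the clone alone. Of 23 members tested, 7 were called, against 12.1% of all genes (5.13% higher and 6.99% lower): 4 ligands and Fzd4 were higher and 2 ligands were lower. At any fold 18 passed, 12 higher and 6 lower, against 58.1% of all genes (23.7% higher and 34.4% lower), and in 19 the samples of the lines did not overlap, against 64.2% of all genes. Wnt4 rose by 4.14 on the log2 scale (standard error 0.06, adjusted p = 1.25e-09, limma), Wnt11 by 2.78 (standard error 0.09, adjusted p = 6.89e-08, limma), and Fzd4 by 2.21 (standard error 0.13, adjusted p = 2.07e-06, limma). Wnt5a rose by 1.37 and Wnt10a by 1.07, while Wnt7b fell by 1.74 and Wnt10b by 1.30, with adjusted p between 1.16e-06 and 2.88e-04 (limma). Wnt10a lost its call without FAK KO sample 1, where its fold change was 0.98, and that of Wnt10b, which passed the filter only through its level in FAK KO, was -0.64 with a pseudocount of 1.

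Below that fold, Wnt6 (0.83), Wnt5b (0.55), Fzd7 (0.73), Fzd2 (0.34), Ror1 (0.94), Ryk (0.22) and Sfrp4 (0.72) rose, and Wnt2 (-0.57), Porcn (-0.81), Wls (-0.74) and Fzd1 (-0.44) fell. The fall of Fzd1 did not pass with each chromosome centred on its median, where it was -0.13. Fzd2 did not pass without β-catenin ΔGSK sample 3, Sfrp4 without β-catenin ΔGSK sample 2, and Ryk without β-catenin ΔGSK sample 3 or FAK KO sample 2 or 3, with adjusted p up to 0.0535, 0.0526 and 0.0618 (limma). Both Lrp co-receptors missed the threshold, with 95% intervals of -0.19 to 0.16 for Lrp5 and -0.01 to 0.29 for Lrp6, as did Fzd5, Fzd6 and Dkk2. Lrp6 passed as higher in β-catenin ΔGSK cells with median-of-ratios scaling, with 1 fit of all lines and with chromosomes centred (0.34, adjusted p = 0.00203, limma). Dkk2 did with that scaling, with chromosomes centred (0.64), without β-catenin ΔGSK sample 3 (0.89) and without FAK KO sample 1 (0.77), and Fzd5 passed as lower without the latter (-0.27). The median log2 fold change of the 23 members was 0.34 and that of all genes tested -0.09. Scaling by the median of ratios moved the median of all genes from -0.09 to 0.01 and that of the members, with 24 then tested, from 0.34 to 0.54. Fzd9, at 0.297 against 0.894 FPKM, was below the filter. When the filter on low values was dropped, Fzd9, Dkk1 and Rspo3 were lower and Rspo1 and Wif1 higher in β-catenin ΔGSK cells with an adjusted p under 0.05 (limma), Wif1 at a mean of 0.103 FPKM. In the other comparisons the members below the filter that passed without it were Fzd8 in FAK-WT against FAK KO (lower), Fzd8, Rspo1 (both higher) and Dkk1 (lower) in KMF against FAK KO, and Rspo1, Wif1 (both higher), Dkk1, Rspo3 and Wnt1 (all lower) in β-catenin ΔGSK against FAK-WT cells.

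The promoters of 32 of the 47 members could be matched by symbol to windows of 300 bases in RefSeq (GRCm38.p6), 250 before and 50 after the start of transcription, and those of Wnt5a and Wnt7b, among others, were not in that table. They were searched on both strands for CTTTGAA and CTTTGAT, the core letters that TCF and LEF factors are known to prefer, which do not overlap each other. Of the 35 windows of these members 3 (8.57%) held a match, and of all 32851 windows 8.65% did. The median GC content was 67.7% in the former and 52.7% in all windows, and the shares were not adjusted for it. The matches were in Wnt11, 51 bases before the start, in Dkk1, 117 bases before it, and in an alternative start of Wnt5b. The windows of the 2 ligands and the receptor with the largest rise in β-catenin ΔGSK cells, and that of Dkk1, the inhibitor with a match, are shown 5′ to 3′ on the strand of the gene, with the match in capitals. A match is a description of the letters and does not show binding.
Wnt4 (chr4:137277385-137277684, plus strand): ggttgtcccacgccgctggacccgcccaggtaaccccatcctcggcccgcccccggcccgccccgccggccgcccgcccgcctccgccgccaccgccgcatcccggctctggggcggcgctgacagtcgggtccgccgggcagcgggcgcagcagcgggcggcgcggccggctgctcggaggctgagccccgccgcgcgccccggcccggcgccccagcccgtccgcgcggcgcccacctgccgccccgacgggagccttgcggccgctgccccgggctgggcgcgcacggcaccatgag
Wnt11 (chr7:98834862-98835161, plus strand): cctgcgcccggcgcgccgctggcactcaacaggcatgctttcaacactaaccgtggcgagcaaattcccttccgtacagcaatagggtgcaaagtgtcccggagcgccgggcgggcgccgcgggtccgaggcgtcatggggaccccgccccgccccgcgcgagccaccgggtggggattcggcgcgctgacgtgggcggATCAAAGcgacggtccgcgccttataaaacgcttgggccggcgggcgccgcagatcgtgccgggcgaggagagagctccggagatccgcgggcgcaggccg
Fzd4 (chr7:89404116-89404415, plus strand): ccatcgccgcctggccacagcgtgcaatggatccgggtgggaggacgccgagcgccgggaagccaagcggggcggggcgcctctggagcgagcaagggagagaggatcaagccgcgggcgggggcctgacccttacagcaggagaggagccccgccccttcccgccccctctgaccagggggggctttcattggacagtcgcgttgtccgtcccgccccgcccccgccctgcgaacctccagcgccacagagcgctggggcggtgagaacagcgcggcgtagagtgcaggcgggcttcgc
Dkk1 (chr19:30549447-30549746, minus strand): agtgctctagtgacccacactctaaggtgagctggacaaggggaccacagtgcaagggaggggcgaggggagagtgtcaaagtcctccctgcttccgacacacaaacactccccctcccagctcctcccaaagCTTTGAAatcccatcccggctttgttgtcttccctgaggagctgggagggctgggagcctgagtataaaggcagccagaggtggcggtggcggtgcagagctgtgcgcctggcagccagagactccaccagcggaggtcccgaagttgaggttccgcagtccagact
The match of Wnt11, the ligand with the second largest rise, is on the opposite strand, and the windows of Wnt4 and Fzd4 held none. Dkk1, with a match, had no fragment in β-catenin ΔGSK cells. The RefSeq starts of Dkk1 and Wnt4 lie 169 and 146 bases inside the gene positions of the expression table, so the match of Dkk1 is within its gene as placed there.

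FAK-WT cells were compared with FAK KO cells, from which they differ by the re-expressed FAK and by transduction and selection. Of 24 members tested, 2 were called, Wnt7b and Fzd9, both higher in FAK-WT cells, against 4.62% of all genes (2.91% higher and 1.71% lower). At any fold 13 passed, 10 higher and 3 lower, against 40.8% of all genes (15.6% higher and 25.2% lower), and 14 had samples that did not overlap, against 56.1%. Wnt7b rose by 2.01 (standard error 0.24, adjusted p = 5.81e-04, limma), and by 1.72 without FAK-WT sample 3. Wnt7b is 1 of 5 members on chromosome 15, whose genes as a group were higher in FAK-WT cells, and with each chromosome centred its fold change was 1.71. Fzd9 rose by 1.41 (standard error 0.26, adjusted p = 0.00403, limma), and by 0.90 with a pseudocount of 1, below the fold for a call. It passed the filter only through its level in FAK-WT, with a mean of 0.894 FPKM in FAK KO cells.

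Below that fold the ligands Wnt4 (0.62), Wnt5a (0.92), Wnt10a (0.88) and Wnt11 (0.87), the receptors Fzd1 (0.60) and Lrp5 (0.64), and the inhibitors Dkk2 (0.93) and Sfrp4 (0.59) rose in FAK-WT cells. Wnt5a, Wnt10a and Dkk2 passed the fold for a call with chromosomes centred, at 1.03, 1.01 and 1.06. The change of Dkk2 was 0.60 without FAK-WT sample 3, and it did not pass without FAK KO sample 2 or 3 (adjusted p up to 0.0896, limma). Sfrp4 did not pass when any sample but FAK KO sample 1 was left out (adjusted p up to 0.0826, limma). Lrp6 (-0.24), Ror1 (-0.54) and Ryk (-0.21) fell, of which Lrp6 and Ryk did not pass with chromosomes centred (-0.04 and -0.09), nor without FAK-WT sample 2 or FAK KO sample 3 (adjusted p up to 0.0626 and 0.0984, limma), and Ryk did not without FAK-WT sample 1. Wnt2, Wnt5b, Wnt6, Wnt10b, Porcn, Wls, Fzd2, Fzd4, Fzd5, Fzd6 and Fzd7 missed the threshold, with fold changes between -0.38 for Fzd4 and 0.49 for Porcn. Of these, Porcn passed without FAK-WT sample 1 (0.67), Fzd4 without FAK KO sample 2 (-0.52) and Fzd7 with chromosomes centred (0.33). Porcn and Fzd4 also passed with 1 fit of all lines. The median of the 24 members was 0.33 and that of all genes tested -0.08. Without FAK-WT sample 3 they were 0.14 and -0.07.

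FAK-R454 cells carry a FAK without kinase activity, and their comparison with FAK KO cells again includes transduction and selection. Of 25 members tested, 4 were called, all higher, against 2.74% of all genes (1.93% higher and 0.812% lower): the ligand Wnt7b, the receptor Fzd9 and the inhibitors Dkk1 and Dkk2. At any fold 13 passed, 11 higher and 2 lower, against 19.7% of all genes (9.78% higher and 9.89% lower), and 18 did not overlap, against 55.1%. Wnt7b rose by 1.36 (standard error 0.15, adjusted p = 9.30e-04, limma), or 1.21 with chromosomes centred, and Fzd9 by 1.47 (standard error 0.20, adjusted p = 0.00224, limma). Dkk1 rose by 2.45 (standard error 0.37, adjusted p = 0.00391, limma) and Dkk2 by 1.08 (standard error 0.17, adjusted p = 0.00444, limma). Dkk1 and Fzd9 passed the filter only through their levels in FAK-R454. The call of Dkk1 was lost without either FAK-R454 sample (adjusted p up to 0.0680, limma), and with a pseudocount of 1 its fold change was 0.91. Dkk2 was not called without FAK KO sample 3 (0.96) or with a pseudocount of 1 (0.90), nor was Fzd9 with the latter (0.94).

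Wnt5a (0.92), Wnt10a (0.84), Fzd1 (0.44), Fzd2 (0.45), Fzd6 (0.70), Lrp5 (0.41) and Sfrp4 (0.98) also rose in FAK-R454 over FAK KO cells. Wnt4 fell by 0.89 (adjusted p = 2.60e-04, limma) and Wnt2 by 0.51 (adjusted p = 0.00197, limma). Without FAK-R454 sample 2, Fzd1, Fzd2, Fzd6, Lrp5 and Sfrp4 did not pass, with adjusted p up to 0.0724, 0.221, 0.0598, 0.123 and 0.105 (limma), and without sample 1 Fzd2, Lrp5 and Sfrp4 did not. Wnt11, at 0.33, missed the threshold (adjusted p = 0.0580, limma), which it passed with limma-voom and without FAK KO sample 2 (0.42). Porcn, at 0.38, missed it as well (adjusted p = 0.0574, limma) and passed with limma-voom and without FAK KO sample 2 (0.45).

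**Figure D4:**
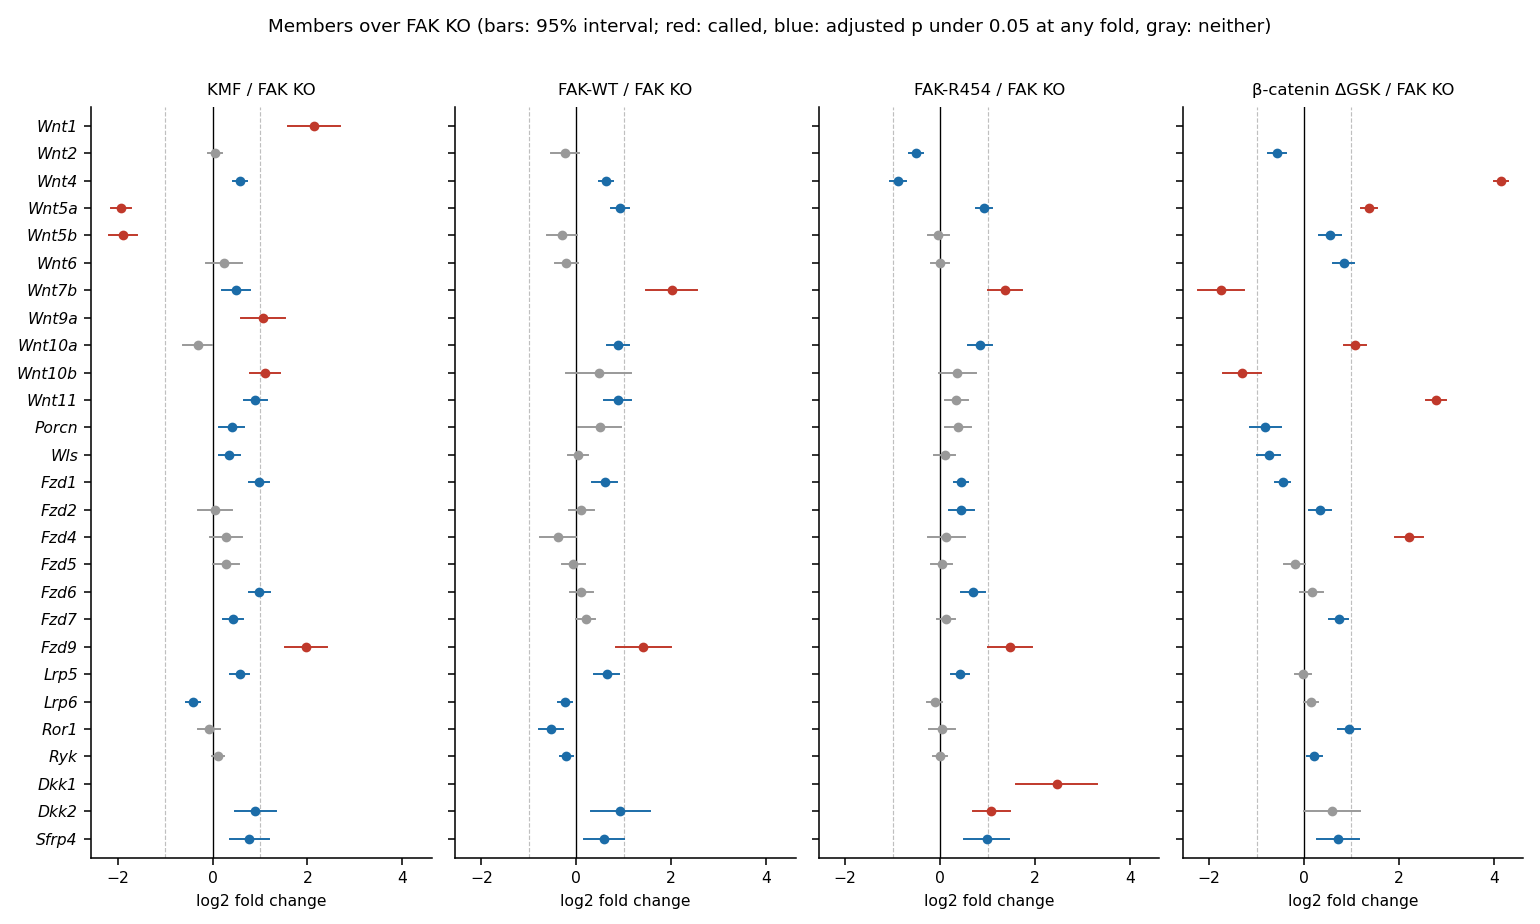
Log2 fold change over FAK KO of the members tested, on the log2(FPKM + 0.1) scale with 95% intervals from limma, in KMF cells and the 3 lines made from the knockout clone. Red marks called genes, blue those with an adjusted p under 0.05 at any fold, gray the rest, dashed lines mark a log2 fold change of 1 in either direction, and Wnt4 in β-catenin ΔGSK cells, at 4.14, lies farthest from 0.

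FAK-WT and FAK-R454 cells, which express FAK with and without kinase activity, were compared directly. Ptk2 mRNA also differed between them, at -0.52 on the log2 scale with FAK-WT the lower (adjusted p = 0.0121, limma), and each is a single derivation, so kinase activity, FAK level and line cannot be told apart. Of 25 members tested, 2 were called, against 1.44% of all genes (0.696% higher and 0.747% lower): Wnt4 was higher in FAK-WT cells by 1.51 (standard error 0.05, adjusted p = 4.07e-04, limma) and Dkk1 lower by 1.61 (standard error 0.24, adjusted p = 0.0186, limma). Dkk1 passed the filter only through its level in FAK-R454. Its call was lost when FAK-WT sample 1 or 2 or either FAK-R454 sample was left out (adjusted p up to 0.185, limma), and with a pseudocount of 1 its fold change was -0.71, whereas Wnt4 ranged from 1.49 to 1.54 over the left-out samples. At any fold 5 passed, against 7.82% of all genes (3.38% higher and 4.44% lower), the others being Fzd6 (-0.59), Ror1 (-0.57) and Ryk (-0.21), all lower in FAK-WT cells. These did not pass without either FAK-R454 sample or without FAK-WT sample 2, with adjusted p up to 0.204, 0.264 and 0.305 (limma), Ror1 and Ryk also not without FAK-WT sample 1 or with chromosomes centred (-0.49 and -0.09). In 14 members the samples did not overlap, against 48.5% of all genes.

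Neither Wnt7b nor Fzd9, which were called higher in both lines over FAK KO, passed the threshold between them. The difference of FAK-WT from FAK-R454 was 0.64 for Wnt7b (95% interval -0.04 to 1.33) and -0.06 for Fzd9 (-0.71 to 0.59). For Wnt5a the difference was 0.00 (-0.22 to 0.22) and for Wnt10a 0.04 (-0.10 to 0.19), while that of Dkk2 was -0.15 (-0.90 to 0.60). With 2 FAK-R454 samples, differences within these intervals could not be resolved. Without FAK-WT sample 3, Wnt7b (0.35), Wnt2 (0.45) and Wnt11 (0.41) passed as higher in FAK-WT cells and Dkk2 (-0.48), Sfrp4 (-0.40) and Fzd2 (-0.43) as lower, with adjusted p up to 0.0289 (limma).

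KMF cells were compared with FAK KO cells, which are 1 clone of them, so the loss of FAK and the choice of that clone cannot be told apart. Of 26 members tested, 6 were called, against 8.01% of all genes (3.97% higher and 4.04% lower): Wnt1, Wnt9a, Wnt10b and Fzd9 were higher in KMF, and Wnt5a and Wnt5b were lower. At any fold 18 passed, 15 higher and 3 lower, against 51.8% of all genes (23.1% higher and 28.7% lower), and 19 did not overlap, against 60.8%. Wnt5a was lower in KMF cells by 1.92 (standard error 0.09, adjusted p = 1.64e-06, limma) and Wnt5b by 1.89 (standard error 0.13, adjusted p = 7.60e-06, limma). Wnt1 was higher by 2.14, Fzd9 by 1.97, Wnt10b by 1.10 and Wnt9a by 1.07, with adjusted p between 7.24e-05 and 0.00274 (limma). Wnt1, Wnt9a and Fzd9 passed the filter through KMF alone, Wnt9a was not called without FAK KO sample 2 (0.95), and with a pseudocount of 1 the changes of Wnt9a and Wnt10b were 0.51 and 0.76.

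Smaller differences past the threshold in KMF over FAK KO cells were those of Wnt4 (0.58), Wnt7b (0.49), Wnt11 (0.90), Porcn (0.40), Wls (0.36), Fzd1 (0.98), Fzd6 (0.98), Fzd7 (0.43), Lrp5 (0.57), Dkk2 (0.90) and Sfrp4 (0.78), and Lrp6 (-0.41) was lower. With chromosomes centred, Wls, Fzd7 and Lrp6 did not pass, at 0.12, 0.23 and -0.11. Without FAK KO sample 3 Wls and Porcn did not pass, nor did Porcn without KMF sample 1, with adjusted p up to 0.0568 and 0.0759 (limma). Wnt2, Wnt6, Wnt10a, Fzd2, Fzd4, Fzd5, Ror1 and Ryk missed the threshold. Of these, Wnt6 (0.46) and Fzd5 (0.42) passed without KMF sample 3, and Wnt2 (0.35) and Wnt10a (-0.51) with chromosomes centred. Wnt10a also passed without FAK KO sample 1 (-0.41), Wnt10a and Fzd5 with 1 fit of all lines, and Ryk with median-of-ratios scaling (0.16). Side by side, Wnt5a had a log2 fold change over FAK KO of -1.92 in KMF, 0.92 in FAK-WT and 0.92 in FAK-R454 cells. The level in FAK-WT cells was thus farther from that of KMF than the level in FAK KO cells was. Fzd9 was 1.97, 1.41 and 1.47, and Wnt4 0.58, 0.62 and -0.89, in the same order.

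Compared directly, β-catenin ΔGSK and FAK-WT cells differed in 10 of 24 members tested, against 11.6% of all genes (4.48% higher and 7.17% lower). Higher in β-catenin ΔGSK cells were Wnt4 (3.52), Fzd4 (2.60), Wnt11 (1.91), Ror1 (1.48) and Wnt6 (1.04). Lower were Wnt7b (-3.75), Fzd9 (-2.77), Wnt10b (-1.78), Porcn (-1.30) and Fzd1 (-1.04). Adjusted p lay between 7.80e-09 and 0.00200 (limma). Wnt6 and Fzd1 were not called without FAK-WT sample 3 (0.93 and -0.90) or without β-catenin ΔGSK sample 3, Fzd1 was -0.84 with chromosomes centred, and Wnt10b was -0.97 with a pseudocount of 1. Wnt10b and Fzd9 passed the filter only through FAK-WT. At any fold 17 passed, against 50.8% of all genes (24.4% higher and 26.4% lower), and 19 did not overlap, against 61.6%. Wnt10a was not among the 17, with a difference of 0.19 (95% interval 0.03 to 0.35), although its samples did not overlap, and it passed with median-of-ratios scaling and with chromosomes centred (0.23).

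**Figure D5:**
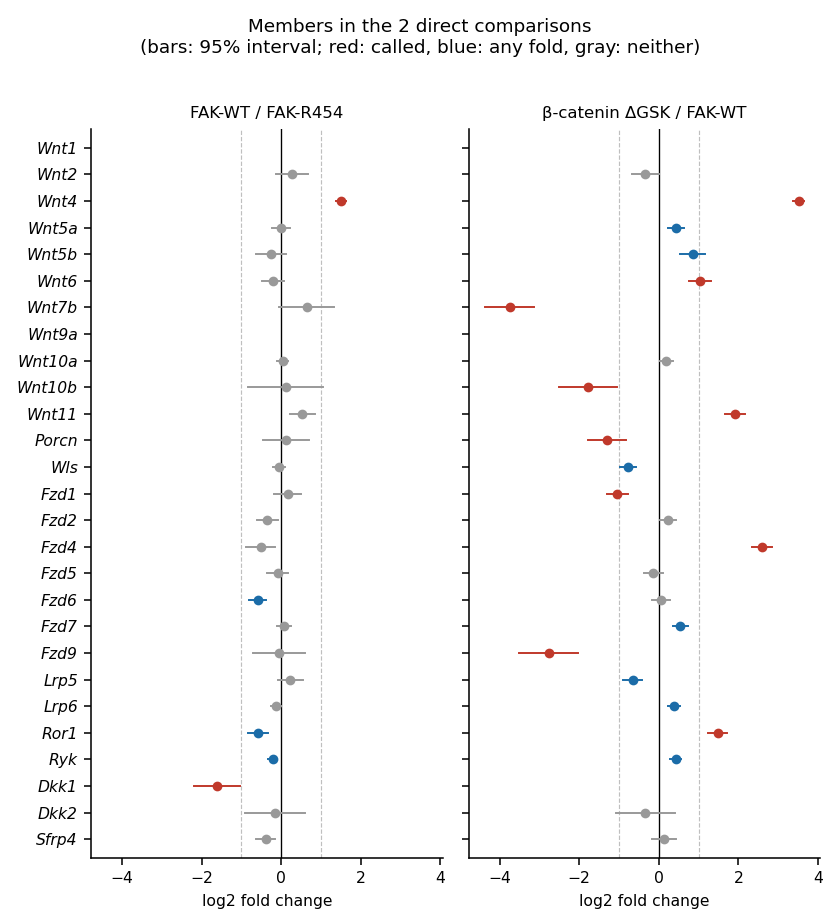
Log2 fold change of the members tested in FAK-WT over FAK-R454 cells and in β-catenin ΔGSK over FAK-WT cells, with 95% intervals from limma and colors as for the comparisons with FAK KO. In the first only Wnt4 and Dkk1 are red, and in the second 5 genes lie to the right and 5 to the left in red, from 3.52 for Wnt4 to -3.75 for Wnt7b.

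Of 52 other genes of the pathway listed beside the members, 40 were tested between β-catenin ΔGSK and FAK KO cells, and 13 were called higher and 3 lower, against 12.1% of all genes called. Most of these were among 19 feedback and surface regulators, of which 13 were tested, 10 called higher and Sost called lower. Of these, Axin2, Tnfrsf19, Nkd1, Lgr5, Notum and Trabd2b passed the filter only through their level in β-catenin ΔGSK cells and Sost only through that in FAK KO cells, so the counts are no support for a change of the list. The largest changes were those of Axin2 (6.89), Tnfrsf19 (6.77) and Nkd1 (6.45), known feedback targets of the pathway. Some genes that act at the cell surface on the members are named here after their values were seen. Lgr5, a receptor of R-spondins, rose by 5.36, and Rnf43 and Znrf3, ubiquitin ligases that remove Frizzled receptors from the surface, by 4.04 and 1.23. Notum, an enzyme that strips the lipid from Wnt proteins, rose by 3.97, and Trabd2b, a protease that cuts them, by 1.69. The inhibitor Sost, which like Dkk1 and Dkk2 binds Lrp5 and Lrp6, fell by 3.60, from 2.32 ± 0.219 to 0.112 ± 0.0832 FPKM (SD, n = 3 each). Among 22 cytoplasmic and nuclear components 21 were tested, with 2 called higher and 2 lower, and among 11 planar polarity genes 6 were tested and 1 was called higher.

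Between FAK-WT and FAK KO cells, 37 of these 52 were tested and 3 were called higher, Trabd2b (2.12), Axin2 (1.22) and Notum (1.19), and Sost, named after its value was seen, was called lower (-1.14), against 4.62% of all genes called. The 3 higher genes passed the filter only through FAK-WT, with means of 0.872, 0.822 and 0.821 FPKM in FAK KO cells. In FAK-R454 over FAK KO cells, Trabd2b (1.29) alone of 35 tested was called, against 2.74%, and it passed the filter only through FAK-R454. In KMF over FAK KO cells, Axin2 was called higher (2.70) and Sost (-2.93), Tle2 (-1.19) and, named after its value was seen, Pygo1 (-1.11) lower, of 37 tested and against 8.01%. Axin2 passed the filter only through KMF, and Sost and Pygo1 only through FAK KO. Compared directly, FAK-WT cells had more Axin2 than FAK-R454 cells (1.30, adjusted p = 0.00584, limma) and less Tle1 (-1.08, adjusted p = 0.00835, limma), against 1.44% of all genes called, and Axin2 passed the filter only through FAK-WT, with a mean of 0.773 FPKM in FAK-R454. Between β-catenin ΔGSK and FAK-WT cells, 10 of 40 were called higher and 2 lower, against 11.6%. The largest changes were those of Tnfrsf19 (6.90), Axin2 (5.67) and Nkd1 (5.57), and Sost, named after its value was seen, was again lower (-2.46). Tnfrsf19 and Nkd1 passed the filter only through β-catenin ΔGSK cells and Sost only through FAK-WT.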

How the data were processed

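Poly(A) RNA of tumorspheres of 5 murine ovarian tumor lines was sequenced in paired-end reads, and per the labels the samples of a line were independent RNA samples, so p-values measure only the spread between these samples, which may be technical. The deposited values are FPKM, fragments scaled to gene length and library size, which the authors made from the reads. The submitters' processing notes name CASAVA 1.8, STAR 2.5, DESeq2 and the build mm10, while the study's methods name TopHat2 for the alignment. 3 FAK-R454 samples are described there and 2 were analysed here. FPKM times gene length gave whole fragments for all values within 0.01, which shows the depth, from 25390558 to 35289859 fragments per library (median 28720224), and 0 columns of unmapped samples were left out. The number of fragments limits the precision of low genes, and limits given for a value of 0 (3 fragments over a line) cover counting error only.

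Groups were taken from the labels. Values were taken as log2(FPKM + 0.1), genes with a mean FPKM above 1 in at least 1 of the lines compared were kept, and the samples of the lines compared were fitted with limma 3.58.1 (lmFit and eBayes with a trend) in R 4.3.3, with Benjamini-Hochberg adjustment over all genes tested. The thresholds were an adjusted p of 0.05 and a log2 fold change of 1. The members, gene lists and tests were chosen with earlier results of these data known. Members called in any comparison or passing at any fold are given by sample, the others by range, and of the other pathway genes the 3 called genes of largest change per comparison are named, with those named after their values were seen marked in the text. Alternatives were pseudocounts of 0.01 and 1, no filter, a filter on the mean of all samples, scaling by the median of ratios, eBayes without a trend, 1 fit of all lines, the replicate number as a block, limma-voom on the recovered fragments, centring of each chromosome on its median, and leaving out each sample. Promoters came from RefSeq (GRCm38.p6). Tables and plots were made with Python 3.11.15, pandas 2.3.3, numpy 2.4.6 and matplotlib 3.10.9.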

Additional observations from a re-analysis of the deposited data

Results flagged for a closer look

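For 4 members the changes from FAK KO passed the adjusted p in opposite directions in a pair of lines, FAK-WT with FAK-R454 or with β-catenin ΔGSK, and the direct comparison of these lines was called at the fold of 2 (limma). Wnt4 was 0.62 over FAK KO in FAK-WT and -0.89 in FAK-R454 cells on the log2 scale, with a difference of 1.51. Wnt7b was -1.74 in β-catenin ΔGSK and 2.01 in FAK-WT cells, with a difference of -3.75. For Ror1 these values were 0.94 and -0.54, with a difference of 1.48. For Fzd1 they were -0.44 and 0.60, with a difference of -1.04, of which the change in β-catenin ΔGSK cells did not pass with chromosomes centred (-0.13) and the difference was then -0.84. Ryk passed in opposite directions as well (0.22 and -0.21), with a difference of 0.43 that passed but was below that fold. Other members, among them Wnt6, Wnt10b and Lrp6, had changes of opposite sign in these lines, of which at most 1 passed, except Fzd9, which passed as higher in FAK-WT (1.41) and, when the filter on low values was dropped, as lower with β-catenin ΔGSK (-1.36), the direct difference being -2.77. Each change shares its FAK KO samples with the other of its pair.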

How the results depend on the processing

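The 84 fold changes of members with an adjusted p under 0.05 were held to the call where they were called and to that p otherwise. Under every alternative in which they could be tested 51 kept their direction and status, 33 lost the status under at least 1, and 0 reversed. With a pseudocount of 1, 9 lost their call by the fold alone, and the members called were 1 in FAK-WT over FAK KO (2 as reported), 1 in FAK-R454 over FAK KO (4) and 1 in FAK-WT over FAK-R454 (2), since a larger pseudocount shrinks the changes of low genes. With chromosomes centred, 9 were lost, and 5 members were called in FAK-WT over FAK KO. With the filter on the mean of all samples, 1 was called in FAK-WT over FAK-R454, and Dkk1, Wnt10b in β-catenin ΔGSK over FAK KO and Wnt9a were not tested. Without the fold threshold the counts were 13, 13, 18, 18, 5 and 17 for FAK-WT, FAK-R454, β-catenin ΔGSK and KMF over FAK KO, FAK-WT over FAK-R454 and β-catenin ΔGSK over FAK-WT. Leaving out 1 library gave, in the same order, 2 to 3, 3 to 5, 6 to 8, 5 to 8, 1 to 2 and 8 to 11 members, where a lone FAK-R454 sample is assumed to vary like the other line. No filter lost 6, 1 fit of all lines 3, median-of-ratios scaling 2, no trend 2, and limma-voom and a pseudocount of 0.01 lost 0. Members short of that p passed it in 8 fits of a member with 1 fit of all lines, in 7 with chromosomes centred, 5 with median-of-ratios scaling, 3 with limma-voom, 1 without a trend and 19 over the left-out libraries, and in 0 with no filter, the filter on all samples or the other pseudocounts. The causes of the changes under centring and without single libraries were not tested.

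Over all genes, a pseudocount of 1 changed the calls from 344 higher and 203 lower to 174 and 99 in FAK-WT over FAK KO, from 228 and 96 to 108 and 37 in FAK-R454 over FAK KO, from 611 and 833 to 420 and 535 in β-catenin ΔGSK over FAK KO, from 472 and 481 to 274 and 292 in KMF over FAK KO, and from 82 and 88 to 26 and 50 in FAK-WT over FAK-R454. Without FAK-R454 sample 2, 148 genes were called higher in FAK-R454 over FAK KO. The comparison of FAK-WT with FAK-R454 had 4 and 3, or 4 and 4, calls without FAK-R454 sample 1 or 2, and 30 and 51 without FAK-WT sample 2. In β-catenin ΔGSK over FAK KO the calls were 728 and 705 with median-of-ratios scaling and 712 and 717 with chromosomes centred.

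Whether the replicate numbers of the labels pair the samples is not settled. The correlation of the deviations of same-numbered samples ranged from -0.25 to 0.45. In β-catenin ΔGSK against FAK KO every pair was positive, at 0.45, 0.28 and 0.08 (mean 0.27). In the other comparisons the mean lay between -0.10 and 0.004. A batch shared by same-numbered samples was not tested. With the number as a block, 2, 3, 7, 6, 2 and 10 members were called, in the order above, 2 fold changes were lost, and 9 others passed: Wnt2, Wnt11, Sfrp4, Wnt7b, Dkk2 and Fzd2 in FAK-WT over FAK-R454, where the block leaves FAK-WT sample 3 without a partner, and Dkk2, Lrp6 and Fzd5 in β-catenin ΔGSK over FAK KO. Depth limits the members near 1 FPKM, such as Dkk1, Wnt1 and Wnt9a.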

Other observations

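Of the ligand genes, 4 pairs lie next to each other within 25 kb in mm10. Wnt6 and Wnt10a on chromosome 1, 6.19 kb apart, were both high. Over FAK KO, Wnt6 in FAK-WT was -0.21, short of the threshold, and Wnt10a 0.88, while with β-catenin ΔGSK they were 0.83 and 1.07. Wnt10b and Wnt1 on chromosome 15, 11.7 kb apart, were both low and both highest in KMF, where they were 1.10 and 2.14 over FAK KO. In the pairs on chromosome 11, Wnt9a was measured up to 1.21 FPKM while its neighbor Wnt3a, 16.2 kb away, had 1 fragment in all, and Wnt9b and Wnt3, 24.3 kb apart, had 0 and 2.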
